A study of Mus musculus with 2 samples.

Results

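The genes described here are those whose products handle glutathione, thioredoxin and peroxides: glutathione transferases (Gst), glutathione peroxidases (Gpx), peroxiredoxins (Prdx), thioredoxins and thioredoxin-domain genes (Txn, Txndc), glutaredoxins (Glrx), superoxide dismutases (Sod), catalase (Cat) and the enzymes that make and recycle glutathione (Gclc, Gclm, Gss, Gsr). They were taken by gene symbol alone, and 69 of the 23234 genes in the table matched. RNA-seq had been performed on round spermatids, haploid male germ cells early after meiosis, from mice of the C57BL/6 strain. The data were 1 library of wild-type (WT) mice and 1 library labelled Epc-dKO, for a double deficiency of Epc1 and Epc2. Both genes encode Enhancer of polycomb proteins, subunits of the NuA4/TIP60 complex that acetylates histones. The promoter or Cre behind the deficiency, the age of the mice and any pooling of animals are not stated in the labels. The comparison addresses how expression in these cells differs between the genotypes. With 1 library per genotype no difference had a replicate check and no p-value was computed.

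Glutathione and thioredoxin are parallel thiol systems that pass electrons from NADPH to peroxides and to protein disulfides. Peroxidases and peroxiredoxins reduce peroxides, reductases regenerate the thiols, and transferases couple glutathione to reactive molecules. In spermatids the thiol enzymes also take part in building the sperm, since protamines, outer dense fibres and the mitochondrial sheath are linked through disulfides, and several family members are made mainly or only in the testis.

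Values are FPKM, fragment numbers divided by transcript length and by how many fragments mapped in all, so levels can be set side by side between genes. The spacing of low values placed the totals behind them at about 37000000 fragments for WT and 40400000 for the library labelled Epc-dKO. Differences between libraries are given as a log2 ratio of FPKM + 1, the library labelled Epc-dKO over WT, and the added 1 shrinks the ratio of genes with low values. A gene was called expressed at a mean FPKM of 1 or more, and said to have risen or fallen when it passed 2-fold on that scale. Neither targeted gene was lower with the Epc-dKO label: the FPKM of Epc1 was 11.4 in WT and 13.6 there, and that of Epc2 was 7.12 and 10.5. A value over the whole gene also counts exons that a deletion leaves in place, so the label is not checked by it. Round spermatid markers were high in both libraries, with an FPKM summed over 15 genes of 1055 in WT and 1103 in the other library. Markers of late spermatids were higher (12 genes, sum 777.9 in WT against 2012 in the library labelled Epc-dKO) and those of spermatogonia lower (15 genes, 44.05 and 19.97).

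Of the 69 genes, 41 (59.4%) were expressed, against 44.9% of all genes. Txndc2, a thioredoxin gene of spermatids, was the only one of the 41 to pass the 2-fold rule upward, and none passed it downward. Over all 10438 expressed genes, 2.75% were higher and 1.88% were lower by the same rule, so a share of 1 in 41 upward and 0 in 41 downward is near the background. The other 40 lay between log2 ratios of -0.77 (Gsr) and 0.64 (Gstt3), and 17 of the 41 lay within 0.25 of 0. The median of the 41 was -0.13 (quartiles -0.42 and 0.20), beside -0.045 for all expressed genes (quartiles -0.34 and 0.24). Of the 41, 23 had a ratio below 0, beside 54.4% of all expressed genes. The background differed by level. At a mean FPKM of 10 or more, 9 of 15 genes of the set were below 0 (median -0.13), beside 46.2% of 3550 genes (median 0.03). At 1 to 10 it was 14 of 26 (median -0.14), beside 58.6% of 6888 genes (median -0.09).

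**Figure D1:**
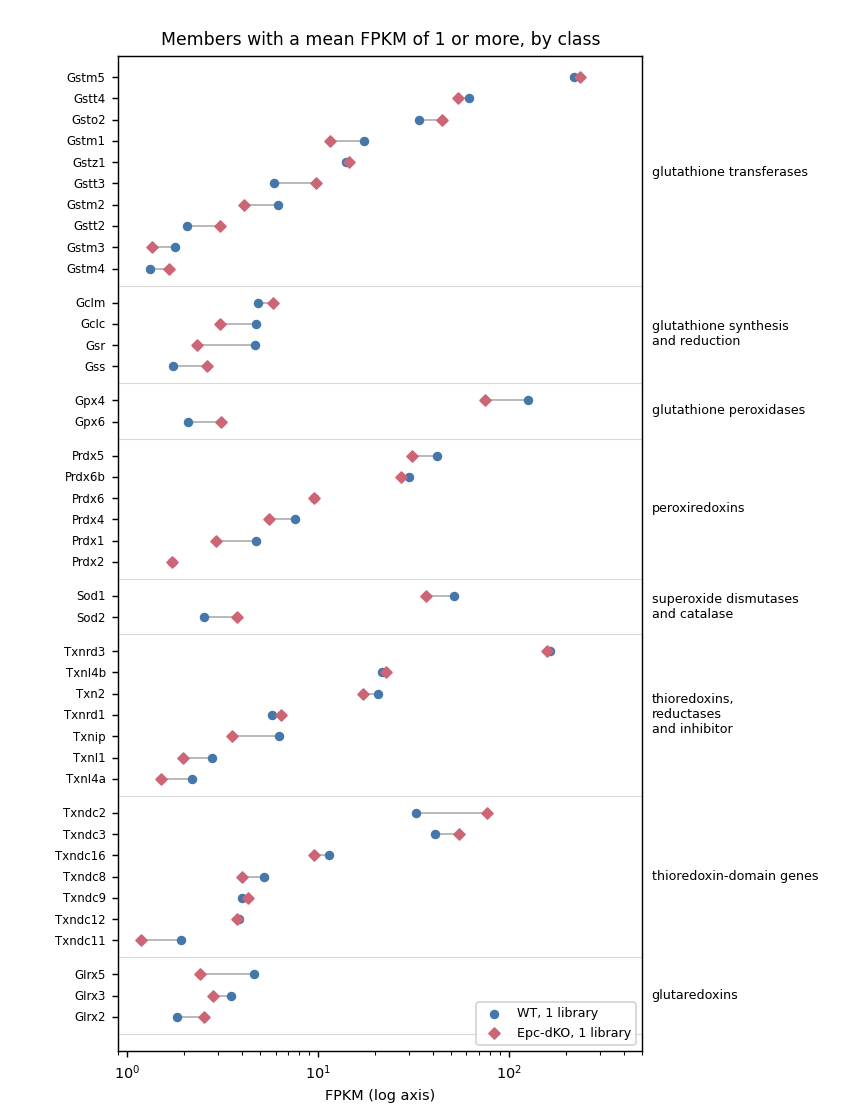
FPKM on a log axis of the 41 expressed genes in the WT library (circles) and the library labelled Epc-dKO (diamonds), grouped by class, with a line joining the values of each gene. Gstm5 and Txnrd3 are the highest and nearly coincide between libraries, and Txndc2 has the widest gap to the right, from 32.6 to 76.6.

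The thioredoxin-domain class held the one gene that rose, and its spermatid members parted from one another. Txndc2 encodes a thioredoxin of the fibrous sheath of the sperm tail. It had an FPKM of 32.6 in WT against 76.6 in the library labelled Epc-dKO, which is 2.35-fold as FPKM and a log2 ratio of 1.21. That ratio exceeded those of 98.2% of expressed genes, and 2.63% of the 1521 genes at a mean FPKM of at least 30 passed the rule upward. Txndc3, now named Nme8, encodes a sperm tail protein with thioredoxin and nucleoside diphosphate kinase domains. Its FPKM was 40.96 in WT against 54.8 in the library labelled Epc-dKO, for a log2 ratio of 0.41 within the 2-fold rule. Txndc8, which encodes a spermatid thioredoxin of the Golgi and forming acrosome, went the other way, with 5.21 and 4.01 and a log2 ratio of -0.31. Of the summed FPKM of these 3 genes, Txndc2 held 41.4% in WT against 56.5% in the library labelled Epc-dKO.

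For Txndc2 and Txndc3 the fragment numbers behind the values were large. The annotated coding transcripts gave about 1904 to 1993 fragments for Txndc2 in WT and 4912 to 5138 in the library labelled Epc-dKO, so that counting error alone was 0.04 on the log2 scale (SD). For Txndc8, with short transcripts, they gave at most about 79 and 68 fragments and a counting error of at least 0.24. With its shortest coding transcript the counting error was 0.62, and its log2 ratio without the added 1 was -0.38. The spread between animals was not measured. Of 12 late spermatid markers 6 also passed the 2-fold rule upward and none downward, with a median log2 ratio of 0.96. Prm2 (82.8 and 675) and Akap4 (85.0 and 193), for a major anchoring protein of that sheath, were among the 6. Another 2 had ratios below 0, Prm3 (16.1 and 11.5, -0.45) and Hils1 (33.6 and 23.1, -0.52). Among 15 round spermatid markers 1 passed, Hspa1l (28.6 and 87.4), and the median was 0.04. The part of a different mix of spermatid steps in the Txndc2 value was not tested, and in bulk RNA fewer cells of a type cannot be told apart from less RNA per cell.

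The promoters of these 3 genes are shown because the genes share their place in spermatids and differ in ratio. Each line holds the 250 bases upstream of a RefSeq start (GRCm38.p6, strand of the gene). Capitals mark matches to TGACATCA on either strand, a variant of the cAMP response element TGACGTCA that was chosen after these sequences were seen.
Txndc2, first of its RefSeq starts, chr17:65642205-65642454, minus strand: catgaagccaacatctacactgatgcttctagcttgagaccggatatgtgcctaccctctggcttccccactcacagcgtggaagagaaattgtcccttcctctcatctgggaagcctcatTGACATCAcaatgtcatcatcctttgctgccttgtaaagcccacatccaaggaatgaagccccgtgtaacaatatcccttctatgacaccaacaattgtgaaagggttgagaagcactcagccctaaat
Txndc8, chr4:58009127-58009376, minus strand: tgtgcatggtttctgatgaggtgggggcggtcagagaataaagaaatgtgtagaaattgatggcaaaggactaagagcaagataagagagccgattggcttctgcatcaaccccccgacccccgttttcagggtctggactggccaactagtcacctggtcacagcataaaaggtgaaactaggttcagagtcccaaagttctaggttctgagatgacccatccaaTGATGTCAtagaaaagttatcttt
Txndc3 (Nme8), chr13:19697761-19698010, minus strand: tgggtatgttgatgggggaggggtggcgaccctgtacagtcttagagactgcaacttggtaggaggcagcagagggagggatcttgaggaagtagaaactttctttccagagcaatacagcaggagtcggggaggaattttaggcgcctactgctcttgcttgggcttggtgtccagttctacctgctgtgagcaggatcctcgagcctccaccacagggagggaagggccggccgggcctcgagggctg

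The promoters of Txndc2 (first start) and Txndc8 each held 1 match, at -129 to -122 and at -24 to -17 from the start. The log2 ratios of these genes had opposite signs. The promoter at the second Txndc2 start and that of Txndc3 held none. Which start of Txndc2 is used in these cells was not tested. The variant occurs in 2.93% of 32851 mouse promoters of this length and in 3 of the 80 from 59 genes of the set. The canonical element TGACGTCA occurred in 1.55% of all promoters and in 1 of the 80, that of Txnl4b. The antioxidant response core TGACNNNGC, which can overlap the other motifs, occurred in 10.2% of all promoters and in 11 of the 80 (13.8%). Among them were promoters of Gclm, Prdx1, Txnrd1 and Txndc2. For Txndc2 this match lay at -203 to -195 from the second of its RefSeq starts, whose sequence is not shown above. A match is a description of these letters, not of a bound site.

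Other thioredoxin-domain genes lay close to 0 or below it. Txndc16 had an FPKM of 11.4 in WT against 9.50 in the library labelled Epc-dKO (log2 ratio -0.24). Txndc9 had 3.98 and 4.28 (0.08), and Txndc12, for a protein of the endoplasmic reticulum, had 3.88 and 3.77 (-0.03). Txndc11 was the lowest of the class, with 1.92 and 1.18 (-0.42). The class median was -0.03 over 7 expressed genes, and it became 0.01 when the libraries were scaled to a median ratio of 1.

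Thioredoxin reductase RNA was almost wholly that of the testis form in both libraries. Txnrd3 encodes the thioredoxin-glutathione reductase, which carries a glutaredoxin domain and serves both thiol systems in spermatids. It had an FPKM of 164 in WT against 158 in the library labelled Epc-dKO (log2 ratio -0.05), making up 96.3% and 96.0% of the summed FPKM of the 3 reductases. The cytosolic Txnrd1 had 5.72 and 6.37 (0.13), and the mitochondrial Txnrd2 had 0.555 and 0.144. Among the thioredoxins themselves the mitochondrial Txn2 was the main form, with 20.6 in WT against 17.2 in the library labelled Epc-dKO (-0.24), or 97.7% and 99.3% of Txn1 and Txn2 together. Txnip, whose product binds and inhibits thioredoxin, had 6.24 and 3.56 and a log2 ratio of -0.67, lower than all but 8.13% of expressed genes yet within the 2-fold rule. An antisense gene, Gm15441, overlaps its exons and shares 18.4% of its 50-base words. Without a stated strand setting, reads from that shared part cannot be told apart. The spliceosomal thioredoxin-fold genes Txnl4b (21.6 and 22.8, log2 ratio 0.07) and Txnl4a (2.19 and 1.51, -0.35) and the proteasome-bound Txnl1 (2.80 and 1.97, -0.35) also lay within 2-fold. The class had a median of -0.24 over 7 expressed genes.

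Glutathione peroxidase RNA was nearly all Gpx4, which had the lower value in the library labelled Epc-dKO. Gpx4 is a selenoprotein that reduces lipid peroxides and becomes a structural protein of the mitochondrial sheath in sperm. Its FPKM was 126 in WT against 74.99 in the library labelled Epc-dKO, for a log2 ratio of -0.74 that did not pass the 2-fold rule. Among the 1521 abundant genes (mean FPKM at least 30), 2.43% had a ratio as low or lower and 1.51% passed the rule downward. Gpx4 held 97.1% of the summed peroxidase FPKM in WT against 95.2% in the library labelled Epc-dKO, and the sum itself was 129.7 and 78.74. Of the 50-base words of its longest transcript 61.7% also occur in transcripts of other genes, Gpx4-ps2 among them, so its value depends on how shared reads were assigned. Gene-level FPKM also merges its nuclear, mitochondrial and cytosolic forms. Gpx6 was the only other expressed peroxidase gene, with 2.09 and 3.09 (0.41). Gpx5, a peroxidase of the epididymis, was listed at 0 in WT and at 0.0343 in the library labelled Epc-dKO. Epididymal markers were near 0 as well: none of 10 was expressed, the highest value was 0.908, and Lcn8, Lcn9, Cst11, Defb15 and Spint4 were at 0 in both libraries.

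**Figure D2:**
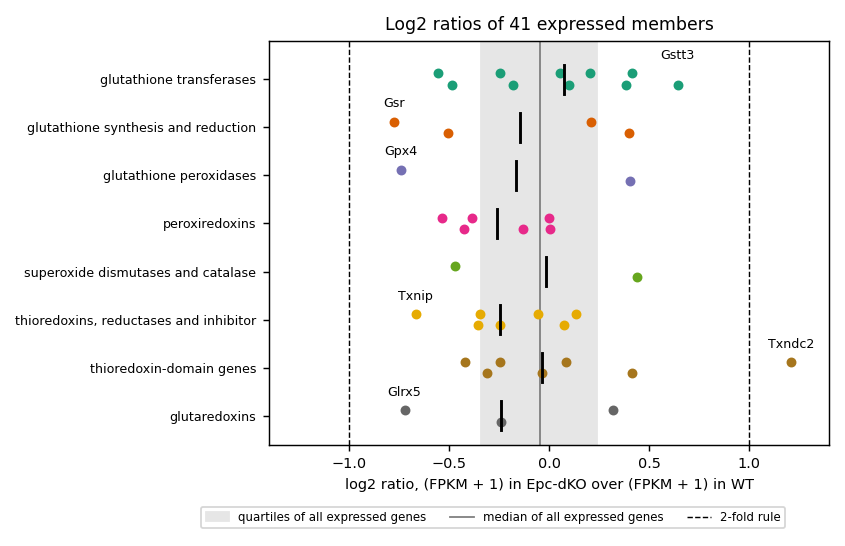
Log2 ratio of FPKM + 1, the library labelled Epc-dKO over WT, for the 41 expressed genes, 1 point each, with the class median as a black bar, the quartiles and median of all expressed genes in grey and the 2-fold rule as dashed lines. Txndc2 at 1.21 lies past the rule, and Gsr, Gpx4 and Glrx5 lie closest to it on the lower side.

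Glutathione transferase RNA was led by single genes of the mu, theta and omega classes. Gstm5, a mu-class transferase gene of testis and brain, was the most abundant of all 69 genes. Its level was 219.97 in WT against 236 in the library labelled Epc-dKO (log2 ratio 0.10), ranking 83 and 80 among all genes. Gstm5 held 88.8% and 92.5% of the mu-class sum. A transcript antisense to Gstm5, 4933431E20Rik, shares 10.1% of its 50-base words. The other mu-class genes were lower in level and mostly had ratios below 0. Gstm1 had 17.4 and 11.5 (-0.56), Gstm2 had 6.14 and 4.10 (-0.49), and Gstm3 had 1.78 and 1.35 (-0.25), while Gstm4 had 1.32 and 1.67 (0.20). Gstm1 and Gstm3 share 23.1% and 28.8% of their 50-base words with other genes, each other among them, so their separate values are uncertain.

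Theta-class genes lay on both sides of 0. Gstt4 had an FPKM of 61.8 in WT against 54.4 in the library labelled Epc-dKO (-0.18). Gstt3 had 5.90 and 9.76, the highest log2 ratio of the transferases at 0.64, and Gstt2 had 2.06 and 3.08 (0.42). The share of Gstt4 in the theta-class sum was 88.2% in WT against 80.8% in the library labelled Epc-dKO. Gsto2, an omega-class gene whose product reduces dehydroascorbate, had 33.9 and 44.6 (0.38) and made up 97.2% and 98.7% of the omega-class sum. The zeta-class gene Gstz1, an enzyme of tyrosine breakdown, had 13.97 and 14.5 (0.05). Over the 10 expressed transferases 6 ratios were above 0 and 4 below, with a median of 0.08. This small positive median was -0.13 on the TPM scale, where 18 transferases passed the minimum.

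**Figure D3:**
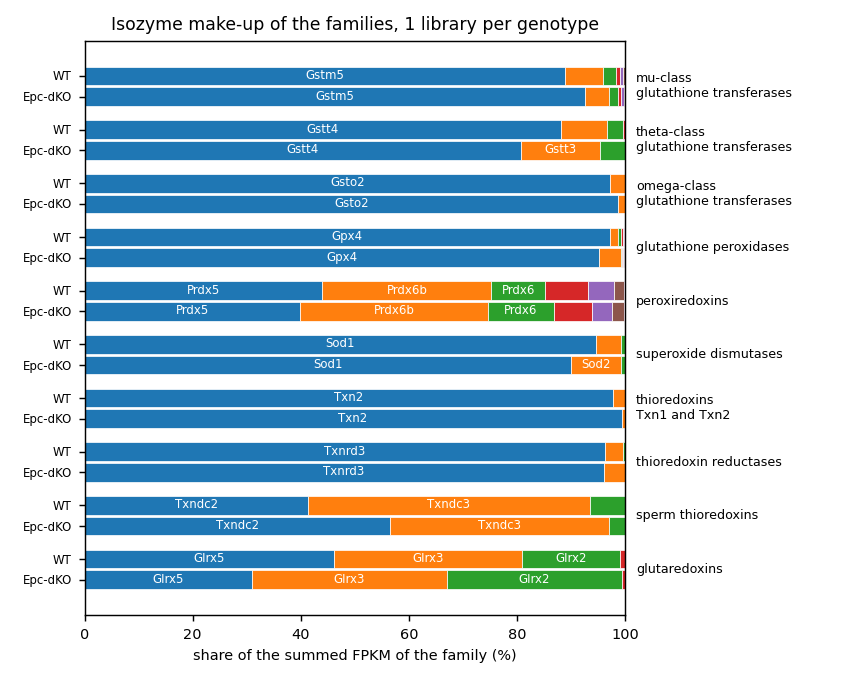
Share of the summed FPKM (%) held by each gene in 10 families, with 1 bar for the WT library and 1 for the library labelled Epc-dKO, segments in order of mean FPKM and names given where a share exceeds about 9%. A single gene holds most of the sum in 7 families in both libraries, and among the sperm thioredoxins the share of Txndc2 is 41.4% in WT against 56.5% in the library labelled Epc-dKO.

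Genes that make and recycle glutathione differed in direction within the pathway. Gclc encodes the catalytic subunit of glutamate-cysteine ligase, the rate-limiting enzyme of glutathione synthesis, and Gclm its modifier subunit. Gclc had an FPKM of 4.76 in WT against 3.05 in the library labelled Epc-dKO (log2 ratio -0.51), whereas Gclm had 4.88 and 5.81 (0.21). Gss, for glutathione synthetase, had 1.75 and 2.62 (0.40). Gsr, for glutathione reductase, had 4.67 and 2.32, and its log2 ratio of -0.77 was the lowest of the 41 and lower than all but 4.99% of expressed genes. As FPKM without the added 1 the ratio was 0.496. The value rested on about 426 fragments in WT against 231 in the library labelled Epc-dKO, a counting error of 0.12 on the log2 scale.

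No peroxiredoxin passed 2-fold, and 4 of the 6 expressed had ratios below 0, where 54.4% of all expressed genes did. Prdx5, found in mitochondria, peroxisomes and cytosol, was the most abundant, with an FPKM of 42.2 in WT against 31.2 in the library labelled Epc-dKO (log2 ratio -0.42). Trmt112 overlaps it on the opposite strand. Prdx6b, a close relative of Prdx6, had 29.9 and 27.2 (-0.13), and Prdx6 itself had 9.55 and 9.57 (0.00). These 2 share under 1% of their 50-base words and can be told apart. Prdx4, an X-linked gene whose product acts in the endoplasmic reticulum, had 7.56 and 5.54 (-0.39). Prdx1 had 4.72 and 2.94 (-0.54), with 10.9% of its 50-base words shared with other genes. Prdx2, abundant in red blood cells, had 1.72 in both libraries, with 23.8% of its 50-base words shared. The class median was -0.26 over 6 expressed genes and stayed below 0 under every scaling tried. Haemoglobin genes Hba-a1, Hba-a2, Hbb-b1 and Hbb-b2 were listed at 0 in both libraries.

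Sod1, the cytosolic superoxide dismutase, had an FPKM of 51.6 in WT against 37.0 in the library labelled Epc-dKO (-0.47). The mitochondrial Sod2 lay on the other side of 0 with 2.52 and 3.77 (0.44), so the share of Sod1 in the dismutase sum was 94.5% and 90.0%. Glrx5, a mitochondrial glutaredoxin of iron-sulfur cluster assembly, had 4.64 and 2.42 (-0.72), and Glrx3 had 3.50 and 2.81 (-0.24). Glrx3 shares 20.4% of its 50-base words with another gene, Gm12669. Glrx2, a mitochondrial glutaredoxin, had 1.83 and 2.53 (0.32). These 3 glutaredoxins were nearly even in level in the library labelled Epc-dKO, with 31.0%, 36.0% and 32.4% of the family sum.

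The remaining 28 genes had a mean FPKM under 1, among them widely expressed genes of most tissues such as Txn1, Gpx1, Prdx3, Gstp1 and Cat. Of these, 24 had a lower value in the library labelled Epc-dKO and 4 a higher one, where 62.1% of the 10187 low genes with differing values were lower. Equal fragment numbers in both libraries give an FPKM ratio of 0.905, because the total was 1.105 times as large in the library labelled Epc-dKO, so such genes count among the lower ones. Of the 28 genes 18 had a ratio that matched a ratio of whole fragment numbers, while Gpx2 and Gpx5, at 0 in 1 library, had no ratio. Among 8485 low genes with an annotated length and values above 0 in both libraries, 52.8% matched. A match fixes fragment numbers up to a common factor, which was taken from the transcript length. Txn1, the cytosolic thioredoxin, had an FPKM of 0.478 in WT against 0.115 in the library labelled Epc-dKO, from 15 and 4 fragments, a ratio of 0.241 with a 95% exact counting interval of 0.0583 to 0.758. Gpx1, the cytosolic glutathione peroxidase, had 0.738 and 0.203, from 23 and 7 fragments, a ratio of 0.276 (interval 0.0999 to 0.663).

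Gstk1 (13 and 4 fragments, ratio 0.279, interval 0.0662 to 0.902) and Gpx7 (9 and 2 fragments, 0.201, 0.0212 to 0.972) were alike. The intervals of Txnrd2 (0.138 to 0.457) and Gstm7 (0.197 to 0.729) also lay below 1, from 56 and 16 and from 35 and 15 fragments when the longest coding transcript was assumed. With the fewest fragments that their shorter transcripts allow, 7 and 2 or 7 and 3, those intervals reached 1.36 and 1.70. An interval below 1 was thus found for 6 of 18 genes, or 4 with the fewest fragments, where 16.7% of 4478 low genes with matched ratios had one, or 11.1% with the fewest. The other 12 intervals included 1, among them Prdx3 (14 and 7 fragments) and Gstt1 (9 and 3). None of the 18 lay above 1, where 9.2% of the 4478 low genes had an interval above 1. Intervals cover counting error only, and PCR copies of a molecule would widen them. Cat had an FPKM of 0.908 and 0.458, and Gstp1 and Gstp2, which share over 60% of their 50-base words with other genes, had 0.599 and 0.520 and 0.246 and 0.245.

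**Figure D4:**
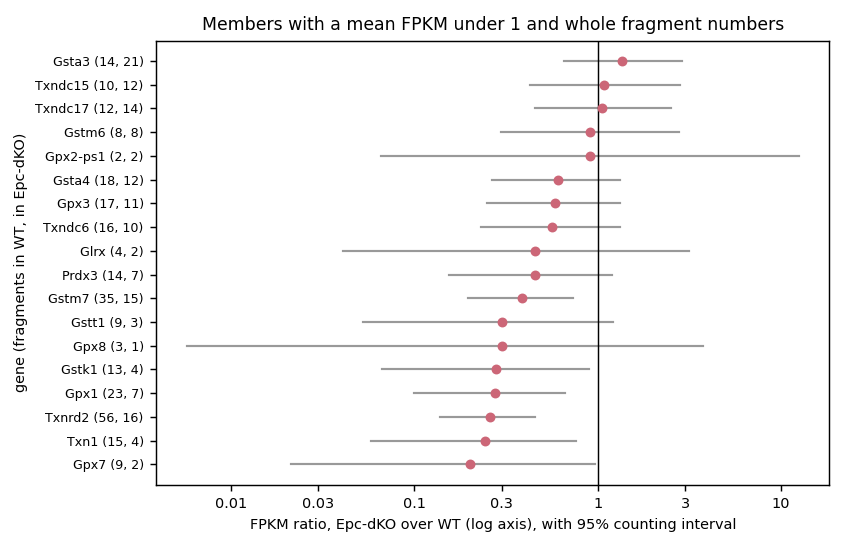
FPKM ratio of the library labelled Epc-dKO over WT on a log axis for the 18 genes with a mean FPKM under 1 whose ratio matched whole fragment numbers, with the 95% exact counting interval as a line and the fragments of both libraries in parentheses. Gpx7, Txn1, Txnrd2, Gpx1, Gstk1 and Gstm7 have intervals below 1, those of Txnrd2 and Gstm7 only when the longest coding transcript is assumed. No interval lies above 1, where 9.2% of 4478 low genes with matched ratios had one above 1 and 16.7% one below 1.

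On the TPM scale, which lowers the minimum for these genes and gives the pseudocount less weight, 60 of the 69 passed the minimum and 5 fell: Gpx1, Txnrd2, Txn1, Gstk1 and Gstm7. Txndc2 rose there as well, by 1.19. The split for all 15151 genes on that scale was 3.6% higher and 6.96% lower. Of the marker lists of other testis cells, that of spermatogonia was lower throughout. All 11 expressed spermatogonial markers of 15 had a log2 ratio below 0, 2 of them fell, Dmrt1 (7.49 and 2.47) and Crabp1 (3.77 and 1.27), and none of the 15 was at 0. Sertoli cell markers summed to 15.59 in WT against 9.898 in the library labelled Epc-dKO, with all 3 expressed genes below a ratio of 0 and Fshr at 0 in WT. Leydig cell markers summed to 51.18 and 32.01, with a median log2 ratio of -0.12 over 9 expressed genes. Of these 3 fell, Insl3, Agt and Ptgds, and 3 had ratios above 0, among them Cyp17a1 of steroid synthesis (7.78 and 8.79). Peritubular and stromal markers went upward in sum, 31.62 and 44.36, through Actg2, while 4 of their 5 expressed genes had ratios below 0. Spermatocyte markers, 13 of 15 expressed, had a median of -0.13 with 9 ratios below 0 and summed to 284.5 and 317.9. Of them Tex101 (12.4 and 5.69) and Zcwpw1 (7.89 and 3.01) fell. Blood, endothelial and immune markers summed to 5.924 and 5.304. The part of these cells in the low values of Txn1, Gpx1 and the others was not tested.

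Genes around these systems, in 5 lists of 103 genes, showed none past the 2-fold rule among 61 expressed, with a median log2 ratio of -0.13 and 34 ratios below 0. Over all 10438 expressed genes 2.75% were higher and 1.88% lower by the rule, and 54.4% had a ratio below 0, so these counts are near the background. With a pseudocount of 0.1 in place of 1, 5 of the 61 passed the rule downward, where 6.25% of all expressed genes did. With 0.5 it was 2 of the 61 and 3.49% of all. In the list of NRF2 regulators and NADPH supply, 13 of 19 genes were expressed, with a median of -0.16. Hmox2, a haem oxygenase gene, had an FPKM of 69.2 in WT against 85.6 in the library labelled Epc-dKO, and Me1, for the malic enzyme that makes NADPH, had 24.99 and 46.4 (log2 ratio 0.87). G6pd2, a testis glucose-6-phosphate dehydrogenase gene named after its values were seen, had 24.4 and 43.7 (0.82). Ratios as far below 0 stood beside these, and 8 of the 13 were below 0. Pgd, for the next NADPH-making enzyme of the pentose phosphate pathway, had 8.0005 and 4.18 (-0.80), and Taldo1, for transaldolase, had 2.24 and 0.797 (-0.85). The redox sensor gene Keap1 had 8.31 and 8.26, and its target Nfe2l2 had 3.01 and 3.43. These genes as well as Pgd, Taldo1, P4hb and Pdia4 were also named after their values were seen.

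In the list of glutathione transport, turnover and other transferases 11 of 28 genes were expressed, with a median of 0.04. Slc25a39, a mitochondrial carrier of glutathione, had an FPKM of 106 in WT against 111 in the library labelled Epc-dKO, and Hagh, a glyoxalase gene, had 67.8 and 69.5. The other thioredoxin-fold and disulfide genes, 17 of 24 expressed, also had a median of 0.04, with the disulfide isomerase gene Pdia3 at 49.4 and 58.2 and its testis relative Pdilt at 45.3 and 53.2. Other isomerase genes of the list had lower values, P4hb with 15.7 and 7.78 (-0.93, the lowest of the list) and Pdia4 with 11.6 and 6.83 (-0.68). Selenoprotein synthesis and other selenoproteins, 11 of 22 expressed, had a median of -0.17. There Sephs2, which makes the selenium donor needed for Gpx4 and the reductases, had 61.9 and 55.6 (-0.15), and Sepw1 had 32.5 and 37.1. Methionine sulfoxide and peroxide repair genes, 9 of 10 expressed, had a median of -0.27, with Park7 at 18.4 and 12.1 and Msrb3 at 10.02 and 12.5.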

How the data were processed

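RNA-seq of round spermatids was deposited as 1 table with 1 FPKM column per library, WT and Epc-dKO. The authors deposited FPKM values, and Cufflinks 2.2.1 and mm9 are named per the submitters' processing notes; no source used here gives the aligner, annotation or strand setting. Libraries were directional and amplified by PCR, per the labels' protocols. Since FPKM is relative to the total, very abundant transcripts can move the rest. A row of library codes was left out of 23235, and the FPKM sums were 193611 and 198081. The 2 libraries were grouped by genotype label, and no test was made.

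The genes, lists and naming rule were chosen with earlier results of these data known. Named are genes past 2-fold, the 2 most abundant and 2 most changed of each class and testis genes, with others added after their values were seen. A pseudocount of 1 and a minimum mean FPKM of 1 were used. The value of 1 fragment was read, after the values were seen, from 681 and 702 low values of genes with 1 GENCODE M21 transcript, of which 63.1% and 64.7% lay within 0.1 of a whole multiple (20.0% if evenly spread). The ratio of totals came from the most frequent FPKM ratio of low genes (461 of 8078). Whole pairs were accepted within 0.0002 for up to 30 fragments before a common factor, which length set. Lengths, exon overlaps and 50-base words came from GENCODE M21 and promoters from RefSeq, both on GRCm38; symbols of all 69 genes matched. The steps were tested on simulated data. Computation used pandas 2.3.3 and NumPy 2.4.6 under Python 3.11.15, intervals SciPy 1.17.1 and plots Matplotlib 3.10.9. Alternatives changed the pseudocount, minimum, scaling, fold rule and gene set.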

Additional observations from a re-analysis of the deposited data

How the results depend on the processing

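Among 30 named genes, 257 of 258 comparisons kept their call by the fold rule, the exception being Txndc2 (log2 ratio 1.21) under the 4-fold rule. A gene under the minimum counted as not passing the rule. Comparisons in which an expressed gene dropped under the minimum, as Gsr and Gclc did at a minimum of 5, were left out of the 258. Gstt1, below the minimum, had -0.25 and, with a pseudocount of 0.1, -1.06. The sign differed in 4 comparisons of genes near 0: Prdx6 (0.0026) had -0.03 on the TPM scale, -0.04 at a common upper quartile and -0.02 at a common sum without the 100 highest genes, and Txnrd3 (-0.05) had 0.0019 at a median ratio of 1. The count of higher genes was therefore 0 under the 4-fold rule, and 0 by construction without the most changed gene. The count of lower genes was 5 on the TPM scale, where more low genes pass the minimum, and 0 otherwise. The median of the set (-0.13) was -0.31 on the TPM scale, where that of all genes was -0.13, and -0.24 without Gst genes. It was -0.05 at a minimum of 5 and -0.07 at a median ratio of 1. The medians of all expressed genes under these 2 settings were 0.02 and 0.0017. Alternatives for the other lists were added after seeing the data. Pathway genes past 2-fold downward numbered 5 with a pseudocount of 0.1, 2 with 0.5 and 6 on the TPM scale, where 6.25%, 3.49% and 6.96% of all genes passed. The spermatogonial median was -1.09, -0.89 and -1.06 under the same settings, which weigh the pseudocount less, and too few of those genes were left at a minimum of 5 to give a value. Medians of small classes could change sign: the dismutases had -0.01 and 0.04 with the libraries scaled to a median ratio of 1. No paired analysis was possible because of the single library per genotype, and no library could be left out for the same reason. Genes under about 30 fragments cannot show differences smaller than their counting intervals.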
